A study of Homo sapiens with 6 samples.

Results

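Aminoacyl-tRNA synthetases load each amino acid onto its own tRNA before protein synthesis, and for most amino acids human cells use separate nuclear genes for the cytosolic enzyme (symbols that end in 1, and the FARSA and FARSB subunits) and the mitochondrial enzyme (symbols that end in 2). GARS1 and KARS1 serve both compartments and are counted here as cytosolic. Of 35 listed synthetase genes, 32 had a probe set annotated to 1 gene symbol and were analysed, 17 cytosolic and 15 mitochondrial, among 19775 genes tested. The genes were listed by name, without a cut on measured values, but with earlier results of these data known. Each gene was read at its brightest probe set. MARS1, QARS1 and TARS2 had only probe sets that carry several symbols and were not analysed here.

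RNA came from SW480 cells, an established human colorectal cancer line, grown in medium with fetal calf serum. One group of 3 biological replicates was transfected for overexpression of CPEB3, a protein that binds RNA and belongs to the cytoplasmic polyadenylation element binding family, and the other group of 3 was a transfected negative control (NC). Total RNA was read on Affymetrix HG-U133 Plus 2.0 arrays, which give 1 normalized intensity per probe set. The labels name neither the vector nor a clone, culture or day for any replicate, so the spread behind each p-value is that of these samples and may be technical. In such bulk samples fewer cells of a type and less RNA per cell cannot be told apart.

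The arrays resembled one another within a group (r = 0.997 to 0.998 over all probe sets) more than between groups (0.991 to 0.992), and their medians lay between 3.89 and 3.93 on the log2 scale. CPEB3 mRNA went against the labels. At its most variable probe set it was 2.39, 2.08 and 2.47 in the arrays labelled CPEB3 and 3.99, 3.59 and 3.68 in those labelled NC, below the array medians in all but 1 array. The difference there was -1.44 (limma over all probe sets, Benjamini-Hochberg adjusted p = 6.72e-05). Its brightest probe set differed by 0.05 (same limma fit, Benjamini-Hochberg adjusted p = 0.671). The remaining probe sets, which were dim, differed by -0.35 and -0.25 (same limma fit, Benjamini-Hochberg adjusted p = 0.00686 and 0.0387). Groups are named by their labels throughout for this reason, and directions depend on the labels being right. The epithelial marker EPCAM read 11.1 in both groups in log2 intensity, KRT8 9.99 against 9.84 in NC, and CDX2, an intestinal transcription factor, 4.85 against 4.83. Of 12 epithelial markers 11 had a difference above 0 and 2 passed, KRT20 (5.13 against 4.26, a rise of 0.87 that exceeds the change of any synthetase; limma, Benjamini-Hochberg adjusted p = 4.18e-05) and KRT18 (0.26). Of 10 leukocyte markers 7 lay below the median probe set and 1 was higher (ITGAM, a call lost with the mean of its probe sets), the list's mean log2 level being 3.42 to 3.54 against 3.33 to 3.34 in NC. Of 12 fibroblast and endothelial markers 7 were dim and 1 was higher (DCN, also lost with the mean of probe sets), with means of 3.47 to 3.49 against 3.41 to 3.46. A difference above 0 was also found in 9 of the 10 leukocyte and 7 of the 12 fibroblast and endothelial markers. Over all 19775 genes it was found in 10882, and 10.9% of all genes passed as higher. The median differences of the epithelial, leukocyte and last lists were 0.11, 0.14 and 0.04. The part of these markers in the results was not tested.

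The cytosolic enzymes work on tRNAs in the cytoplasm, and several sit in a large multi-synthetase complex around scaffold proteins that include AIMP1. When amino acids run short, uncharged tRNA activates the kinase GCN2, which raises translation of the transcription factor ATF4, and ATF4 in turn is known to switch on many cytosolic synthetase genes together with genes of amino acid synthesis and transport. It acts at C/EBP-ATF response elements near the start of these genes. The mitochondrial enzymes charge tRNAs for the few proteins that mitochondria translate themselves, all of them parts of the respiratory chain or of ATP synthase.

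The sequences below show where the core of this element, TGATGNAA on either strand, fell within 250 bases before to 50 bases after the start of measured cytosolic members (RefSeq, GRCh38.p14). They are shown because genes with the same letters differed in how they moved. Capitals mark the match.

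AARS1: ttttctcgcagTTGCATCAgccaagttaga
CARS1: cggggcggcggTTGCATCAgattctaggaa
TARS1: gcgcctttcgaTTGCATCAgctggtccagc
IARS1: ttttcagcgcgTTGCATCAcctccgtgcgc
NARS1: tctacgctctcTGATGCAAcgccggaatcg

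The AARS1 stretch is at chr16:70289675-70289704 (minus strand), the CARS1 stretch at chr11:3057407-3057436 (minus), the TARS1 stretch at chr5:33440956-33440985 (plus), the IARS1 stretch at chr9:92293692-92293721 (minus) and the NARS1 stretch at chr18:57621804-57621833 (minus). The first base of the match lay at -187, -2, 3, -13 and 15 relative to the start, so in TARS1 and NARS1 it falls after it. NARS1 carries the reverse complement of the letters in the other 4.

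Of the 32 members of the family 7 were lower and 7 higher in the arrays labelled CPEB3 at a limma Benjamini-Hochberg adjusted p under 0.05, where 23.3% of all genes tested passed, 12.5% lower and 10.9% higher. All members were brighter than the median probe set, and among the 12918 genes of at least that brightness 17.7% were lower and 14.5% higher, so 7 of 32 (21.9%) in each direction was not far above the background. The balance of the counts depended on the setting: 13 were higher and 4 lower with spike-in centring, 3 and 7 with the replicate number as a block, and 1 and 5 at a threshold of 0.01. It was 2 higher and 7 lower without CPEB3 replicate 1, 2 and 5 without CPEB3 replicate 2, 5 and 6 without CPEB3 replicate 3, 2 and 9 without NC replicate 1, 4 and 5 without NC replicate 2, and 5 and 5 without NC replicate 3. Over all genes 39.3% were higher and 5.25% lower with spike-in centring. The median difference of the members was -0.01 on the log2 scale, against 0.02 over all genes. In 22 of 32 members no CPEB3 array overlapped the range of the NC arrays, against 39.1% of all genes and 51.2% of those at least as bright as the median probe set.

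Of 17 cytosolic members 6 fell (35.3%), 3 rose and 8 did not pass, and the median difference was -0.09. Of 15 mitochondrial members 1 fell, 4 rose (26.7%) and 10 did not pass, with a median of 0.04. The cytosolic differences ran from -0.80 to 0.25 and the mitochondrial ones from -0.27 to 0.37, so the ranges overlapped, and 5 cytosolic members lay below the lowest mitochondrial one and 3 mitochondrial members above the highest cytosolic one. Whether the compartments differ as sets was not tested. The cytosolic count turned to 6 higher and 4 lower and the median to 0.09, beside 7 mitochondrial members higher and 0 lower, when the arrays were centred on the spike-in controls, which shifted every gene up by 0.18 (5.25% of all genes were then lower and 39.3% higher). That median was 0.07 with probe sets open to several transcripts left out, and without CPEB3 replicate 1 or CPEB3 replicate 2, 0 cytosolic members were higher.

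**Figure D1:**
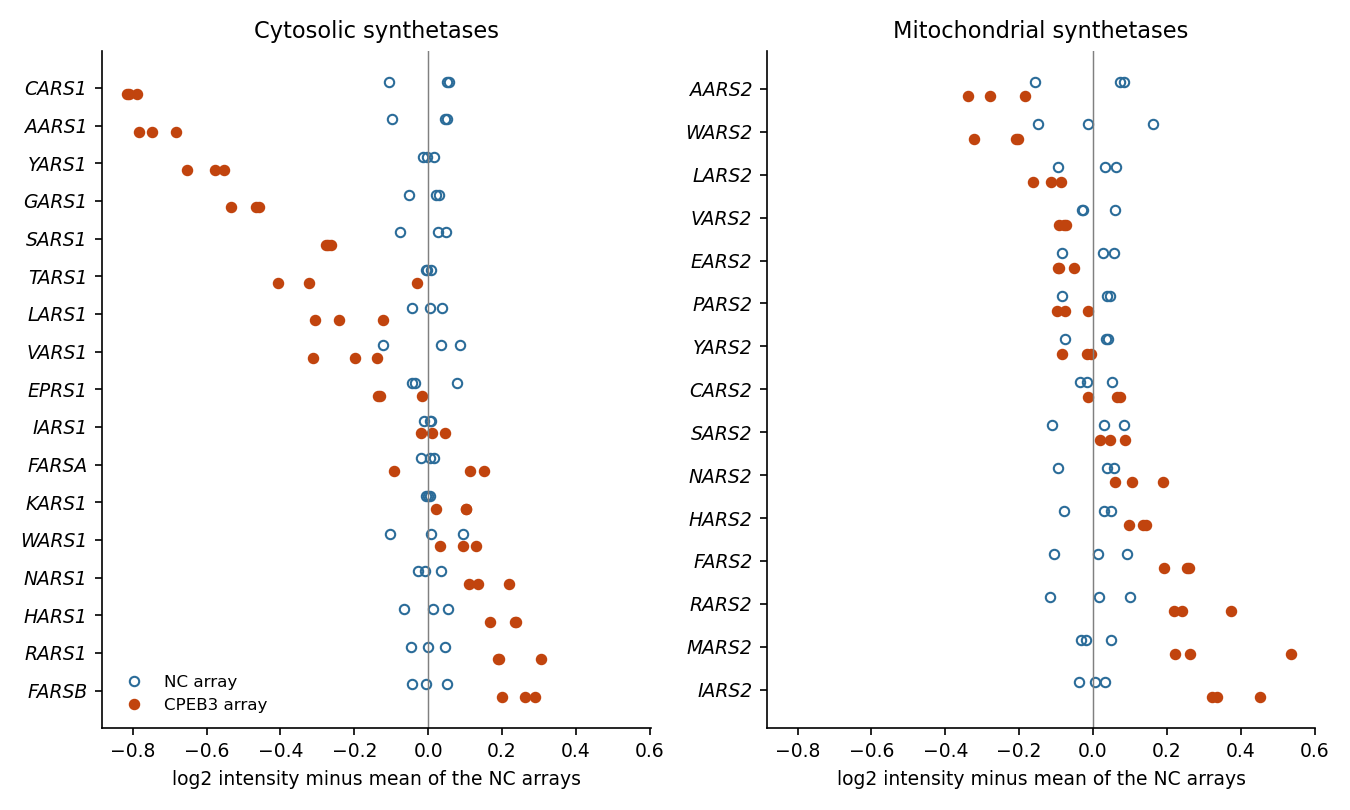
Log2 intensity of each synthetase in each array minus the mean of the 3 NC arrays, for 17 cytosolic (left) and 15 mitochondrial (right) genes; filled points are arrays labelled CPEB3 and open points arrays labelled NC. The 3 CPEB3 arrays lie clear of the NC arrays at the left for CARS1, AARS1, YARS1 and GARS1, and to the right for IARS2.

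CARS1, the cysteine enzyme, changed most. Its log2 intensity was 9.68, 9.70 and 9.68 in the arrays labelled CPEB3 and 10.4, 10.5 and 10.5 in those labelled NC. The groups lay far apart and the difference was -0.80 (SE 0.06), or 1.75-fold (limma, Benjamini-Hochberg adjusted p = 3.57e-05). Of its 4 probe sets 3 fell by similar amounts (-0.80, -0.77 and -0.78), and the remaining one, dim at 3.31 against 3.44, differed by -0.13.

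AARS1, which charges alanine, read 7.80, 7.84 and 7.90 against 8.49, 8.64 and 8.63, and every value of the first group was below every value of the second. The difference was -0.74 (SE 0.07), 1.67-fold (limma, Benjamini-Hochberg adjusted p = 6.72e-05). YARS1, the tyrosine enzyme, read 8.84, 8.74 and 8.81 against 9.39, 9.38 and 9.40. The fall was 0.59 (SE 0.06), or 1.51-fold, with a limma Benjamini-Hochberg adjusted p of 1.16e-04 and with its dimmer second probe set at -0.26. GARS1, which serves both the cytosol and mitochondria with glycine tRNA from a single gene, read 9.64, 9.58 and 9.65 against 10.1 in all NC arrays, a fall of 0.49 (SE 0.06; limma, Benjamini-Hochberg adjusted p = 4.10e-04).

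These 4 differences were the deepest in the family. AARS1, CARS1 and YARS1 were the members past the threshold and lower by at least 1.5-fold, where 2.75% of all genes met both conditions. AARS1, CARS1, GARS1, YARS1 and the mitochondrial IARS2 kept their calls in each of the 18 alternative settings that measured them, with spike-in centring reducing the falls to -0.56, -0.62, -0.31 and -0.41. With probe sets open to several transcripts left out, YARS1 was -0.26 and barely passed (limma, Benjamini-Hochberg adjusted p = 0.0493), and GARS1 had no probe set there.

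SARS1, the serine enzyme, fell less, from 8.44, 8.56 and 8.54 in NC to 8.24, 8.25 and 8.24, a difference of -0.27 (SE 0.06; limma, Benjamini-Hochberg adjusted p = 0.00986). Both its probe sets were lower (-0.27 and -0.32). Its call was lost with spike-in centring (-0.09, limma Benjamini-Hochberg adjusted p = 0.394). LARS1, the leucine enzyme, which also reports leucine supply to mTORC1, read 8.71, 8.60 and 8.53 against 8.79, 8.87 and 8.84 (difference -0.22, SE 0.07, limma Benjamini-Hochberg adjusted p = 0.0379). Its 4 probe sets disagreed, from -0.22 to 0.10, and with their mean the difference was -0.10 (limma, Benjamini-Hochberg adjusted p = 0.239).

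TARS1 and VARS1, the threonine and valine enzymes, were lower in all 3 arrays labelled CPEB3 without passing the test. TARS1 read 9.20, 8.82 and 8.91 against 9.22, 9.22 and 9.24 (-0.25, limma Benjamini-Hochberg adjusted p = 0.0813), CPEB3 replicate 1 lying close to the NC arrays. Without that replicate it was -0.36 and passed (limma, Benjamini-Hochberg adjusted p = 0.00842). TARS1 also passed with the mean of its probe sets (-0.39), at its most variable one (-0.53), without dim genes and with an intensity trend. VARS1 differed by -0.22 (limma, Benjamini-Hochberg adjusted p = 0.0691), with 0.06 at its dimmer probe set, and passed without NC replicate 1 (-0.28, limma Benjamini-Hochberg adjusted p = 0.032). It also passed without dim genes, with an intensity trend and with array weights.

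The 3 cytosolic members that rose did so by small amounts. FARSB, the beta subunit of the phenylalanine enzyme, went from 8.28, 8.32 and 8.38 in NC to 8.62, 8.59 and 8.53 (0.25, SE 0.06, limma Benjamini-Hochberg adjusted p = 0.0144), while its partner subunit FARSA differed by 0.06 (95% interval -0.11 to 0.22). The FARSB call was lost with the mean of its 3 probe sets (0.17, limma Benjamini-Hochberg adjusted p = 0.147). It was also lost at the most variable one and with probe sets open to several transcripts left out. RARS1, the arginine enzyme of the complex, went from 8.82, 8.91 and 8.87 to 9.17, 9.06 and 9.06 (0.23, limma Benjamini-Hochberg adjusted p = 0.0254). HARS1, the histidine enzyme, went from 8.53, 8.61 and 8.65 to 8.84, 8.76 and 8.83 (0.21, limma Benjamini-Hochberg adjusted p = 0.0308). In each of the 3 the groups did not overlap.

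Of the 5 measured enzymes of the multi-synthetase complex RARS1 rose, LARS1 fell and EPRS1, IARS1 and KARS1 did not pass, with a list median of 0.01. The 20% in each direction was near the share of genes at least as bright as the median probe set (17.7% lower, 14.5% higher). RARS1 and LARS1 each lost the call in 4 of the 6 fits that leave out an array. With the replicate number as a block 0 of the 5 passed (median still 0.01). EPRS1, a fused enzyme for glutamate and proline, differed by -0.09 (95% interval -0.24 to 0.05). IARS1, for isoleucine, differed by 0.01 (95% interval -0.11 to 0.14), and its 6 values ran only from 10.26 to 10.32 in log2 intensity. KARS1, a single lysine gene for both compartments, differed by 0.07 (95% interval -0.05 to 0.20). Of 3 listed scaffold genes 1 was measured, AIMP1, which differed by 0.10 (limma, Benjamini-Hochberg adjusted p = 0.252) at its brightest probe set. It was higher with the mean of its 3 probe sets (0.32), at its most variable one (0.49) and with spike-in centring (0.28). With probe sets open to several transcripts left out it was higher as well (0.36). NARS1, the asparagine enzyme outside the complex, differed by 0.15 with groups apart (limma, Benjamini-Hochberg adjusted p = 0.0899), and passed with spike-in centring (0.33).

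WARS1, the tryptophan enzyme, is known as the synthetase gene that interferon-gamma induces. Its values were 8.37, 8.27 and 8.34 in the arrays labelled CPEB3 and 8.14, 8.34 and 8.25 in those labelled NC. The groups overlapped, with a difference of 0.09 (95% interval -0.07 to 0.24; limma, Benjamini-Hochberg adjusted p = 0.417). In the same arrays IRF1, an interferon-induced transcription factor, fell by 1.48 (SE 0.06), TAP1 by 2.33, CXCL10 by 2.43 and PSMB9 by 3.99. Of 9 measured genes known to share interferon-gamma induction with WARS1, 4 fell, 1 rose (CIITA, 0.24, a call lost when its probe sets were averaged) and 4 did not pass. The 12.5% of all genes that were lower are the background of that count.

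**Figure D2:**
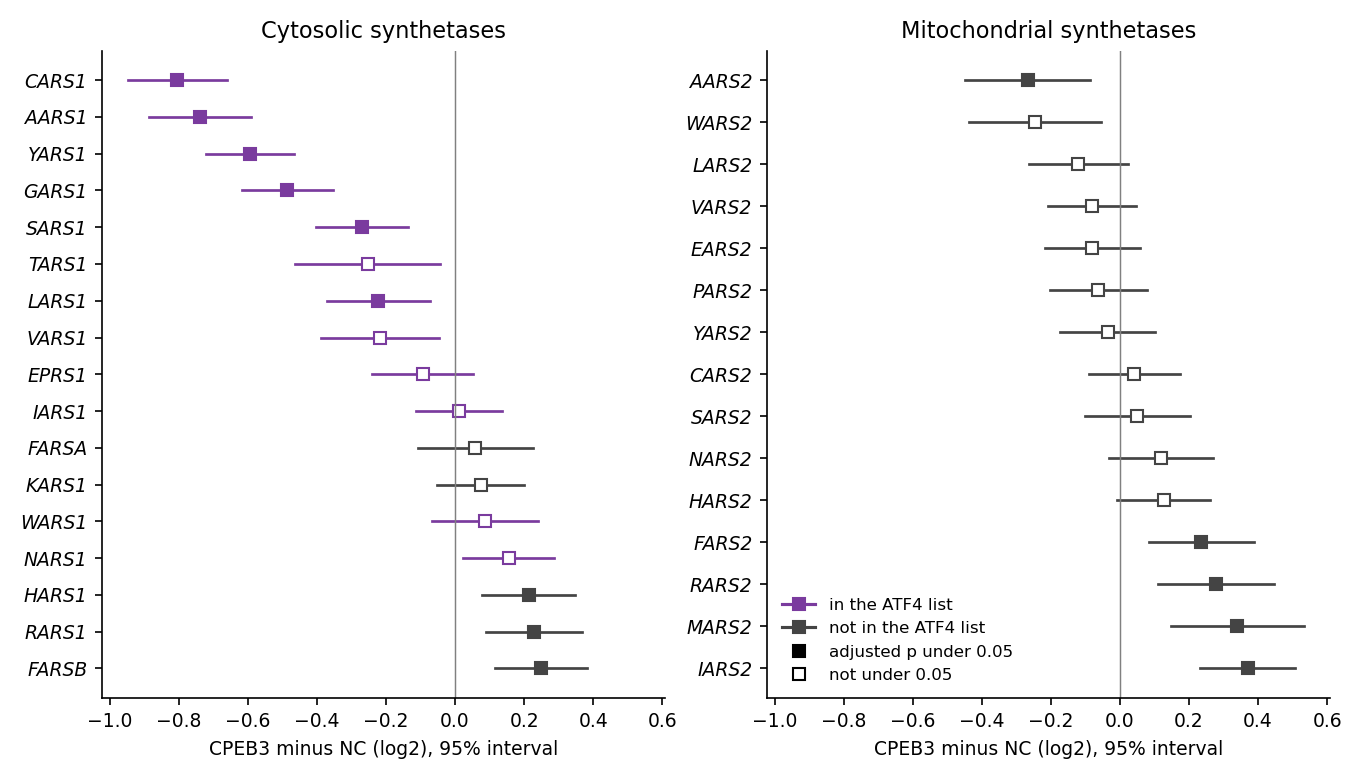
Difference between the arrays labelled CPEB3 and labelled NC on the log2 scale for each synthetase, with its 95% interval from limma (3 arrays a group); filled squares passed a Benjamini-Hochberg adjusted p under 0.05 and purple marks members of the list of known ATF4 targets. All 6 cytosolic members that fell are purple and the 3 that rose (HARS1, RARS1 and FARSB) are not. The list holds 12 of the 17 measured cytosolic members. It was drawn up with earlier results of these data known, so the split is no independent support.

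Of 12 measured cytosolic synthetases listed as ATF4 targets, 6 fell, 0 rose and 6 did not pass, with a median of -0.24, where 12.5% of all genes and 17.7% of those at least as bright as the median probe set were lower. The listed members with a difference above 0 were IARS1, WARS1 and NARS1. Among the other 5 (FARSA, FARSB, HARS1, KARS1 and RARS1) 0 fell and 3 rose, with a median of 0.21, where 10.9% of all genes and 14.5% of the brighter ones were higher. At an unadjusted p under 0.05 in limma, TARS1 and VARS1 also lay on the lower side of the first list and NARS1 on the higher side. The list was drawn up from general knowledge with earlier results of these data known, and the difference between the lists was not tested. With spike-in centring 4 of the 12 fell and 2 rose (median -0.06), and 4 of the other 5 rose (median 0.39). In that setting 5.25% of all genes were lower and 39.3% higher. Leaving out CPEB3 replicate 1 or CPEB3 replicate 2 left 0 of the other 5 called, against 7 and 5 of the 12 lower. Leaving out NC replicate 1 left 1 of them.

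ATF4 mRNA itself read 9.99, 9.93 and 9.83 in the arrays labelled CPEB3 and 10.5, 10.5 and 10.4 in those labelled NC. The difference was -0.52 (SE 0.06), past the threshold at a limma Benjamini-Hochberg adjusted p of 4.34e-04, whereas EIF2AK4, which encodes GCN2, differed by -0.04 and EIF2S1, the translation factor subunit that GCN2 phosphorylates, by 0.00. Of 31 genes of the amino acid response 19 fell and 0 rose, with a median of -0.37, against 12.5% of all genes lower and 10.9% higher. With spike-in centring 14 fell and 4 rose, against 5.25% and 39.3% of all genes. The deepest were the transcription factors ATF3 (-1.95), DDIT3 (-1.37) and CEBPB (-1.03) and the cystine transporter SLC7A11 (-1.13). The arrays measure mRNA, so ATF4 protein, whose level is set largely by translation, was not measured.

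The C/EBP-ATF letters were found in 6 of 16 promoters of cytosolic synthetases (MARS1, which was not analysed, being the sixth), in 1 of 14 promoters of mitochondrial ones (YARS2) and in 3.67% of 27305 promoters of the same length. Promoters were held for 27 of the 32 measured members, and LARS1, VARS1, YARS1, AARS2 and VARS2 had none. Of the 5 measured cytosolic members shown, AARS1 and CARS1 fell, while TARS1 (-0.25), IARS1 (0.01) and NARS1 (0.15) did not pass, so the letters were present both in the deepest falls and in a gene with no measured difference. GARS1 and SARS1 fell without the letters in this window. The interferon-stimulated response element (GAAA, any 2 bases, GAAA) was in the promoter of 0 of 16 cytosolic members and of EARS2 alone among the mitochondrial ones, against 3.65% of all promoters, on either strand.

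The largest mitochondrial difference was smaller than the largest cytosolic one (0.37 against -0.80). The mitochondrial genes were also dimmer, with mean log2 levels of 6.59 to 6.73 over the 6 arrays against 8.92 to 9.11 for the cytosolic ones. The part of brightness in the size of the differences was not tested. IARS2, for isoleucine, rose most and most steadily, from 8.53, 8.48 and 8.56 in the arrays labelled NC to 8.98, 8.86 and 8.84. The groups lay apart by more than their own spread, with a difference of 0.37 (SE 0.06; limma, Benjamini-Hochberg adjusted p = 0.0025). Its cytosolic counterpart IARS1 differed by 0.01.

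MARS2, for methionine, read 5.59, 5.32 and 5.28 against 5.04, 5.03 and 5.11 (0.34, SE 0.09, limma Benjamini-Hochberg adjusted p = 0.0193), CPEB3 replicate 1 standing above the other values. RARS2, for arginine, read 7.82, 7.69 and 7.67 against 7.33, 7.47 and 7.55 (0.28, SE 0.07, limma Benjamini-Hochberg adjusted p = 0.0255). All 6 of its probe sets had a difference above 0, from 0.00 to 0.28, and their mean differed by 0.10 without passing (limma, Benjamini-Hochberg adjusted p = 0.246). FARS2, for phenylalanine, read 6.27, 6.20 and 6.27 against 5.91, 6.10 and 6.02 (0.24, SE 0.07, limma Benjamini-Hochberg adjusted p = 0.032). With the mean of its 3 probe sets FARS2 differed by 0.15 without passing (limma, Benjamini-Hochberg adjusted p = 0.0748).

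AARS2, for alanine, was the mitochondrial member that fell, at 5.48, 5.42 and 5.58 against 5.60, 5.83 and 5.84 (-0.27, SE 0.08, limma Benjamini-Hochberg adjusted p = 0.0404). Its groups were separated by little, and its other probe set differed by -0.01. WARS2, for tryptophan, differed by -0.25 with groups apart and did not pass (limma, Benjamini-Hochberg adjusted p = 0.0658), though it passed without NC replicate 1 (-0.32, limma Benjamini-Hochberg adjusted p = 0.0262). WARS2 also passed with probe sets open to several transcripts left out (-0.22) and without dim genes. The same held with an intensity trend, with array weights and with the replicate number as a block. The remaining 9 mitochondrial members did not pass, with differences from -0.12 (LARS2) to 0.13 (HARS2). Among them NARS2, for asparagine, differed by 0.12 with groups apart (limma, Benjamini-Hochberg adjusted p = 0.247).

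NRF1 is a transcription factor known to act on many nuclear genes of mitochondria. Its element (GCGCA, any base, GCGC), searched on both strands, was in 3 of 14 mitochondrial and 3 of 16 cytosolic promoters, against 6.28% of all promoters. The stretches of the mitochondrial members that rose and carry it are shown, as the rest of that group (FARS2 and RARS2) lacked these letters in the window.

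IARS2: cgctcccggaGCGCGTGCGCcctcttactc
MARS2: cgacccggctGCGCATGCGCctctcacacg

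The IARS2 stretch is at chr1:220094106-220094135 (plus strand, first base of the match at -16) and the MARS2 stretch at chr2:197705332-197705361 (plus, at -27), both from RefSeq GRCh38.p14. PARS2, which did not pass (-0.06), also carries the letters, as do SARS1, which fell, FARSB, which rose, and TARS1, which did not pass.

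Calls near the threshold depended on single arrays. Leaving out CPEB3 replicate 1 ended 6 of the 14 calls (FARSB, HARS1, RARS1, AARS2, FARS2 and RARS2), and the limma Benjamini-Hochberg adjusted p then ran from 0.052 to 0.107. Without CPEB3 replicate 2, 7 were lost (those 6 and LARS1, 0.053 to 0.131), and without CPEB3 replicate 3, 3 were lost (HARS1, LARS1 and FARS2, 0.0872 to 0.121). Without NC replicate 1, 5 were lost (HARS1, RARS1, FARS2, MARS2 and RARS2, 0.0582 to 0.0725). Without NC replicate 2, 5 were lost (HARS1, LARS1, AARS2, MARS2 and RARS2, 0.0574 to 0.122), and without NC replicate 3, 4 were lost (LARS1, RARS1, AARS2 and FARS2, 0.0629 to 0.118). AARS1, CARS1, GARS1, YARS1, SARS1 and IARS2 passed in all 6 of these fits.

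For 11 amino acids 1 cytosolic and 1 mitochondrial gene were both measured, and their difference within each array does not change with any constant added to that array. Probe sets differ in affinity, so only the change of this difference between groups is read. It was lower in all arrays labelled CPEB3 in 5 pairs, higher in 2 and overlapping in 4. The share of overlap-free single genes was 39.1%, or 51.2% of those at least as bright as the median probe set, as all members were. No such share was computed for differences of 2 genes. With 3 arrays a group an exact permutation test cannot give a two-sided p below 0.1, so none is given.

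CARS1 minus CARS2 was 3.21, 3.31 and 3.20 in the arrays labelled CPEB3 and 3.999, 4.09 and 4.18 in those labelled NC, a change of -0.85. YARS1 minus YARS2 changed by -0.56 and AARS1 minus AARS2 by -0.47, in the alanine pair with both genes lower. IARS1 minus IARS2 changed by -0.36, from 1.75, 1.78 and 1.72 to 1.35, 1.43 and 1.41, the 1 pair of the 5 whose mitochondrial gene rose. SARS1 minus SARS2 changed by -0.32.

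The tryptophan pair went the other way, WARS1 minus WARS2 being 2.71, 2.49 and 2.56 against 2.30, 2.19 and 2.28, a change of 0.33. Neither of its genes passed the test on its own. In the histidine pair the change was 0.09 with little spread (SD 0.02 in each group), and HARS1 (0.21) and HARS2 (0.13) both lay higher. The leucine, valine, arginine and asparagine pairs overlapped, with changes from -0.14 to 0.04.

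**Figure D3:**
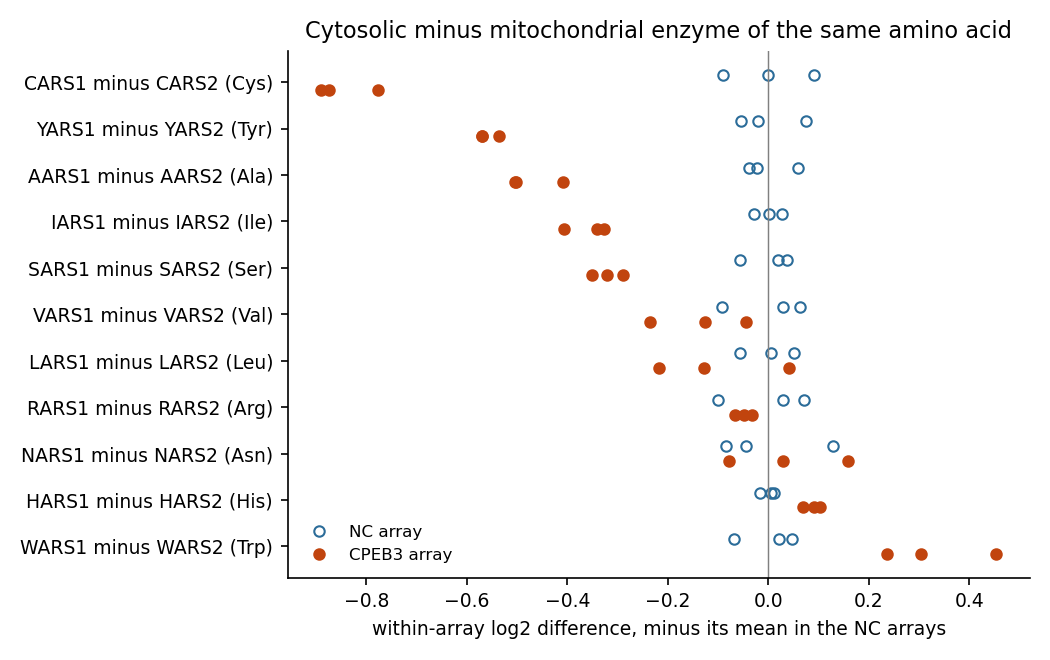
Within-array log2 difference of the cytosolic and the mitochondrial gene for the same amino acid, minus its mean in the 3 NC arrays; filled points are arrays labelled CPEB3 and open points arrays labelled NC. The cysteine, tyrosine, alanine, isoleucine and serine pairs lie to the left of the NC arrays in all 3 CPEB3 arrays, and the tryptophan and histidine pairs to the right.

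Other partners of charging were read in the same fit. XPOT, the export receptor for tRNAs, read 8.27, 8.26 and 8.22 against 8.89, 8.75 and 8.74, with a difference of -0.54 (SE 0.06, limma Benjamini-Hochberg adjusted p = 3.20e-04) that lies between those of GARS1 and YARS1. DTD2, a deacylase that removes wrongly joined amino acids from tRNA, rose by 0.54 (limma, Benjamini-Hochberg adjusted p = 1.88e-04), and TARS3, a further threonyl-tRNA synthetase gene, by 0.25, a call lost without CPEB3 replicate 2. XPO5, an exporter of small RNAs, fell by 0.23, a call lost with spike-in centring and without CPEB3 replicate 1, 2 or 3 or NC replicate 2 or 3. In all, 2 of 7 such genes rose and 2 fell, against 10.9% of all genes higher and 12.5% lower. Among genes at least as bright as the median probe set 14.5% were higher and 17.7% lower.

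Of 13 partners in mitochondrial charging and translation 5 rose, 1 fell and 7 did not pass, with a median of 0.13 against 0.02 over all genes, where 10.9% were higher (14.5% of the brighter genes) and 12.5% lower. QRSL1 (0.32) and GATC (0.25) belong to the amidotransferase that completes glutaminyl-tRNA in mitochondria, MTFMT (0.28) formylates the initiator methionyl-tRNA that MARS2 charges, and TUFM (0.28) and GFM1 (0.29) are elongation factors. These are the 5 that rose. GATB, the third subunit of the amidotransferase, differed by 0.05 and TSFM, another elongation factor, also by 0.05, and neither passed (limma, Benjamini-Hochberg adjusted p = 0.662 and 0.532). MTRFR, a rescue factor for stalled mitochondrial ribosomes, was lower by 0.36, a call lost with spike-in centring, at its most variable probe set and when its probe sets were averaged. Without CPEB3 replicate 2 the count was 2 higher, without CPEB3 replicate 1, CPEB3 replicate 3 or NC replicate 1 it was 3.

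**Figure D4:**
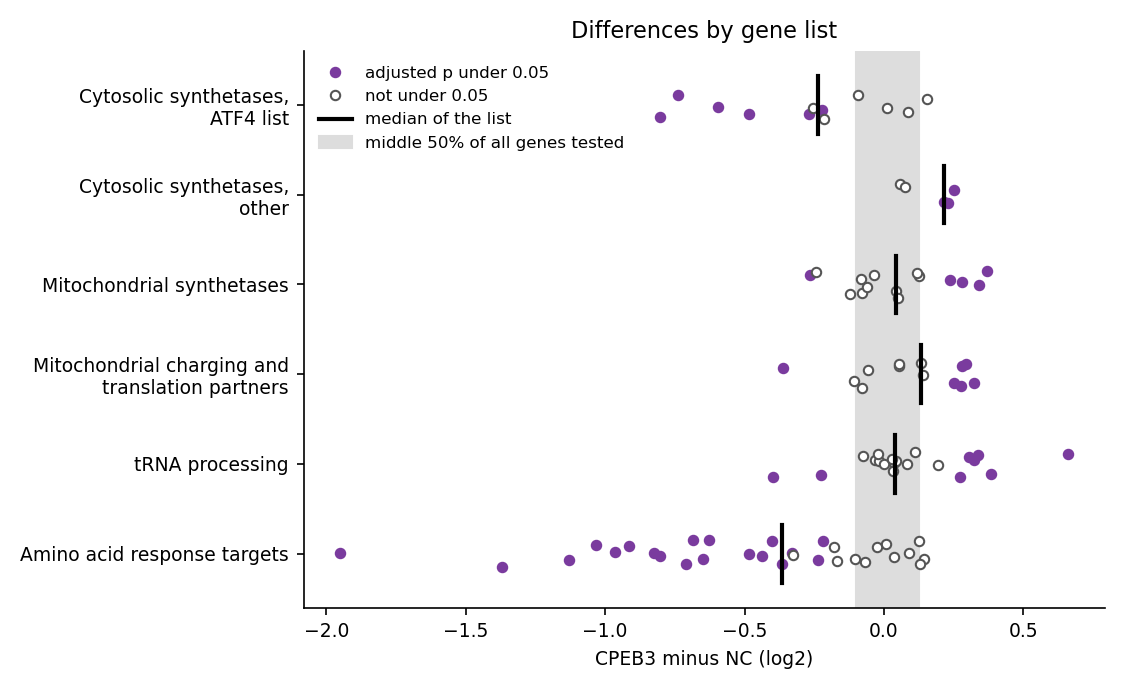
Differences (log2, CPEB3 minus NC) of the genes in 6 lists; filled points passed a limma Benjamini-Hochberg adjusted p under 0.05, black bars are list medians and the grey band holds the middle 50% of all genes tested. The amino acid response list and the cytosolic synthetases known as ATF4 targets have medians of -0.37 and -0.24 to the left of the band, and the other cytosolic synthetases have a median of 0.21 to its right. The lists were chosen with earlier results of these data known.

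Of the 32 members 18 had more than 1 probe set, 67 probe sets in all for the family. In 12 of the 18 all probe sets differed in the same direction, and 0 had probe sets called in opposite directions when every probe set was tested on its own. Those with probe sets on both sides of 0 were LARS1, VARS1, WARS1, CARS2, EARS2 and WARS2.

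**Figure D5:**
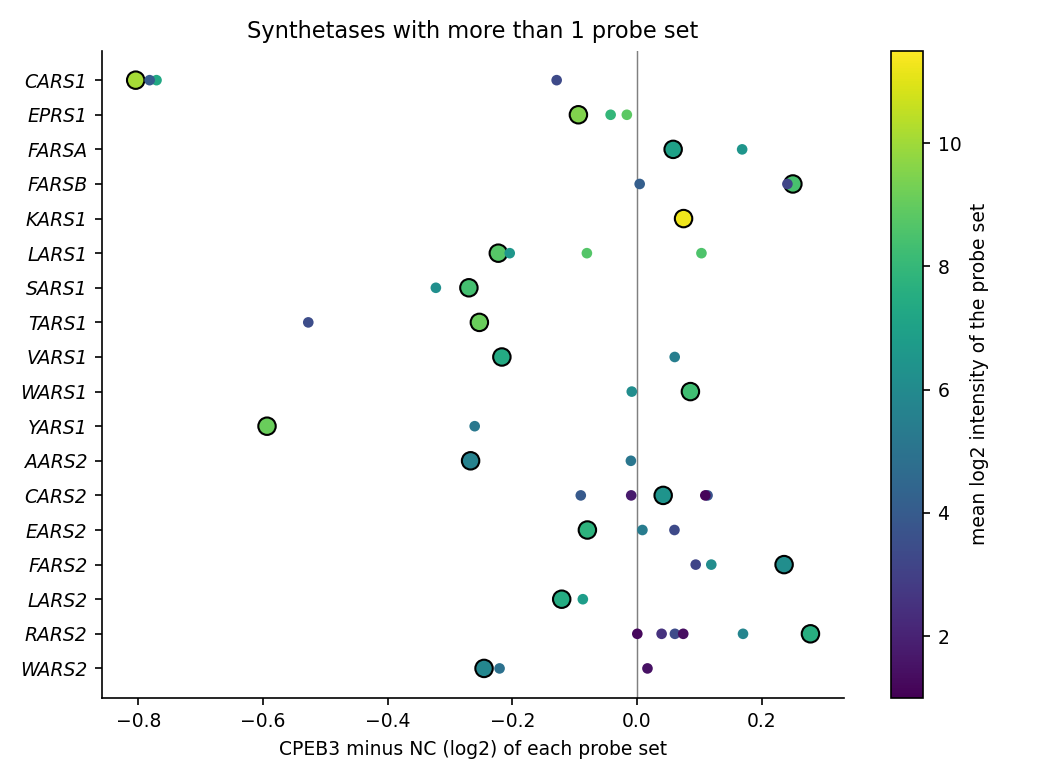
Difference between groups (log2) at each probe set of the 18 synthetases with more than 1; large outlined points stand for the gene in the counts and colour gives the mean log2 intensity. CARS1 has 3 probe sets near -0.80 and 1 dim probe set at -0.13, and the RARS2 probe sets spread from 0.00 to 0.28.

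Synthetases fall into classes by the fold of their active site. Of 17 measured class I members 3 fell and 4 rose (median -0.08), and of 15 class II members 4 fell and 3 rose (median 0.06), beside 12.5% of all genes lower and 10.9% higher. The class II count was 0 higher and 4 lower without CPEB3 replicate 1 and 0 and 3 without CPEB3 replicate 2, where class I had 2 higher and 3 lower and 2 and 2. Without NC replicate 1 class I had 1 higher and 5 lower, and class II 1 and 4. At the most variable probe set class II had 0 higher and 4 lower and class I 3 and 2. The difference between the classes was not tested.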

How the data were processed

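For 54675 probe sets on 6 arrays the authors deposited normalized intensity values, which are linear and were made with RMA, per the submitters' processing notes. Not given in the sources used here are its version and how values were returned to linear form. RMA sets array distributions alike and compresses dim differences. Log2 was taken. Precision is limited by the number of arrays. Of the probe sets, 41091 had 1 symbol, 1801 several, 11721 were unnamed and 62 were controls. Groups and replicates came from the titles. Differences (labelled CPEB3 minus labelled NC) were tested in R 4.3.3 with limma 3.58.1 (lmFit, eBayes, two-sided, group as the only term, Benjamini-Hochberg over 19775 genes, threshold 0.05). The rule named every measured member and up to 4 called genes of each other list with the largest change. CIITA, TUFM, GATC, GATB, TSFM, EIF2AK4 and EIF2S1 and the markers EPCAM, KRT8 and CDX2 were named outside that rule after their values were seen. Members and lists were chosen with earlier results of these data known. Motifs were searched in RefSeq promoters. The fit was tested on simulated data of 19775 genes for this comparison, with 200 genes changed. It recovered 12% of log2 changes of 0.25, 60% of those of 0.5, 96% of those of 1 and 100% of those of 2. The simulated fit made 140 calls in all, against 4616 in the real one, so its threshold was stricter before adjustment. These rates therefore do not give the recovery in the real fit. Figures were drawn with matplotlib 3.10.9.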

Additional observations from a re-analysis of the deposited data

How the results depend on the processing

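Of the 14 called members, 5 kept their call under each of the 18 alternatives that measured them, and 8 lost it in at least 1 of the 6 fits that leave out an array. Leave-one-out counts ran from 5 to 8 for cytosolic members (5 to 7 lower, 0 to 2 higher) and from 2 to 4 for mitochondrial members (0 to 2 lower, 1 to 3 higher), and over all genes from 3373 to 4354 (1861 to 2412 lower, 1512 to 1942 higher). Their medians ran from -0.13 to -0.06 for cytosolic and -0.01 to 0.07 for mitochondrial members, and from 0.01 to 0.02 over all genes, and 5 to 7 pairs had the cytosolic partner lower. Spike-in centring gave 8804 of all genes (1038 lower, 7766 higher; median 0.20), 6 cytosolic members higher, 0 mitochondrial lower and 7 higher, with medians of 0.085 and 0.22. It turned EPRS1 (0.085), EARS2 (0.10), LARS2 (0.059), PARS2 (0.12), VARS2 (0.10) and YARS2 (0.14) to the other side of 0; none of them was called. IARS1 turned with median centring (-0.0034) and without CPEB3 replicate 1 (leave-one-out range -0.0052 to 0.028), SARS2 without NC replicate 1 (-0.0054 to 0.092), and YARS2 with repeated quantile normalization (0.0092). At a threshold of 0.01, 2603 genes passed (1520 lower, 1083 higher), with 5 cytosolic members (0 higher) and 1 mitochondrial (0 lower, 1 higher). With the mean of probe sets 2 mitochondrial members passed (0 lower, 2 higher) and the cytosolic median was -0.051. With the most variable probe set 1 cytosolic member was higher, 2 mitochondrial members passed (0 lower, 2 higher) and the median was -0.042. With probe sets open to several transcripts left out the cytosolic median was 0.066 and 2 mitochondrial members were lower, as they were without dim genes, with an intensity trend and with array weights. With the replicate number as a block 1 cytosolic member was higher and 2 mitochondrial members were lower and 2 higher. Same-numbered arrays deviated together with r of 0.00, -0.02 and 0.12, so the numbers were not taken as pairs. The cause of these changes was not tested, beyond the smaller number of arrays in each leave-one-out fit.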

Other observations

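Genes that process tRNA before charging were read as well. Of 20 measured genes 6 rose and 2 fell, with a median of 0.04 against 0.02 over all genes, where 10.9% of all genes rose and 12.5% fell. POP5, a subunit of the RNase P and RNase MRP complexes that trim tRNA and ribosomal RNA precursors, rose by 0.66 (SE 0.06), from 8.55, 8.66 and 8.66 in the arrays labelled NC to 9.32, 9.24 and 9.29 (limma, Benjamini-Hochberg adjusted p = 8.41e-05). POP4 (0.32), RPP40 (0.31) and POP1 (0.27), further proteins of these complexes, rose too, while POP7 (0.04), RPP14 (0.03), RPP25 (-0.02), RPP30 (0.00) and RPP38 (0.08) did not pass. Apart from POP5, these subunits and PRORP were named after their values were seen.

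TRMT10C (0.38) and HSD17B10 (0.34), which together form the methyltransferase part of mitochondrial RNase P, both rose (limma, Benjamini-Hochberg adjusted p = 0.00327 and 0.00481), and PRORP, its nuclease subunit, differed by 0.03. TSEN15, a subunit of the tRNA splicing endonuclease, was lower by 0.40 (limma, Benjamini-Hochberg adjusted p = 0.0015). That call was lost with spike-in centring (-0.22) and with the mean of its probe sets. With spike-in centring 10 of the 20 rose and 0 fell, against 39.3% of all genes higher and 5.25% lower.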
